A study of Mus musculus with 4 samples.

Results

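Antisense RNAs were examined in the Jurkat line, which derives from a human T cell leukaemia, in cells labelled MATR3 knockout (by CRISPR-Cas9) or wild-type. The product of MATR3, matrin 3, binds RNA and belongs to the nuclear matrix. Each group held 2 RNA sequencing libraries of cells grown in the same serum-containing medium, and 1 table of read counts per gene covered all 4. Whether the knockout cells were a clone or a pool, and whether the 2 libraries of a group came from separate cultures, is not given in the sources used here, so the p-values reflect the spread between libraries alone, which may be technical. Of 58735 gene rows, 5583 carried the biotype antisense in the deposited table. The 123 rows described here were selected on their read counts, as those with at least 300 reads summed over the 4 libraries. They made up 2.20% of the antisense rows and held 56.7% of antisense reads, while 2645 antisense rows had 0 reads in every library.

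Antisense RNAs are transcribed from the strand opposite a gene, and many begin near that gene's promoter and run away from it. Some are transcribed together with their neighbour, some act on it in cis, and others act elsewhere in the cell or have no known role. Several well expressed ones are hosts of small nucleolar RNAs (snoRNAs), which are processed from their introns and guide chemical modification of ribosomal RNA. In what follows, 2 rows are called head to head where they overlap at their starts, and tail to tail where they overlap at their ends.

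Total counts were 15008554 and 15022788 in the libraries labelled knockout, against 17477643 and 15400214 in the wild-type libraries. The tested row of the targeted gene went against the label. The tested MATR3 row (ENSG00000015479) had 42 and 61 reads in the libraries labelled knockout and 19 and 9 reads in the wild-type libraries, a log2 fold change of 2.05 (SE 0.386, edgeR quasi-likelihood test, Benjamini-Hochberg adjusted p 2.85e-06). A second MATR3 row overlaps nearly all of it. That row had 2 and 2 reads in the libraries labelled knockout and 5 and 1 in the wild-type libraries. How reads lying in both rows were counted is not given in the sources used here. These few reads therefore cannot give the level of MATR3 RNA or show whether the knockout or the labels hold. T cell markers were present in both groups at different levels. Of 14 T cell markers, 13 were lower in the libraries labelled knockout, and their summed level was 1475 and 1438 CPM (counts scaled to the library's total) there against 3655 and 3401 CPM in wild-type. Of 12 myeloid markers, 11 were higher and 1 was lower, with sums of 5857 and 5752 CPM in the libraries labelled knockout against 445 and 427 CPM in wild-type. The neutrophil elastase gene ELANE and the receptor gene CSF3R were at 0 reads in both wild-type libraries. Of 6 B cell markers, 3 were tested, of which 2 were higher and 1 was lower. Of 5 epithelial markers, the keratin genes KRT8 and KRT18 were higher while EPCAM and KRT19 were at 0 in all 4 libraries. Mitochondrial genes took 9.49% and 9.33% of reads in the libraries labelled knockout and 5.31% and 4.92% in wild-type. Over all 15294 rows tested, 33.7% were higher and 32.3% lower in the libraries labelled knockout. All the marker, MATR3 and mitochondrial differences above moved with the comparison, and their part in the results was not tested. In bulk RNA, fewer cells of a type and less RNA per cell cannot be told apart.

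The antisense rows moved in both directions in nearly equal numbers. Of 123 rows, 38 rose and 37 fell in the libraries labelled knockout and 48 did not pass the test, so that 61.0% were called. Over all 15294 rows tested, 66% were called, 33.7% higher and 32.3% lower, and of the 3058 rows with 300 to 1000 reads 66.2% were called. Of all rows with at least 300 reads, 73.3% were called. By the DESeq2 Wald test, 64 of the 123 antisense rows and 56% of all rows tested were called. By edgeR, the share among the antisense rows was thus near or below the background. Their median log2 fold change was 0.01, against 0.02 over all rows tested. Changes of at least 2-fold were found in 17 rows that rose and 17 that fell (all rows tested: 15.6% and 10.7%). The fold changes ran from -2.45 to 9.04 on the log2 scale, and from -2.0 to 1.70 among the rows with 150 reads or more in each group. Together the antisense rows took 0.166% and 0.172% of reads in the libraries labelled knockout and 0.146% and 0.148% in wild-type, and without AFAP1-AS1 0.153% and 0.159% in the libraries labelled knockout and 0.146% and 0.148% in wild-type.

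Counting only by position of the libraries, both libraries labelled knockout lay above both wild-type libraries in 48 rows and below them in 48, and the groups overlapped in 27. Over all rows tested, 41.6% lay above and 40.4% below, and 82% did not overlap in either direction. The sum of 300 reads could be reached through 1 group alone. Of the 16 rows with under 150 reads in wild-type, 15 rose and 0 fell. Of the 25 with under 150 reads in the libraries labelled knockout, 19 fell and 0 rose. These counts follow in part from how the rows were chosen. Among the 82 rows with 150 reads or more in each group, 23 rose and 18 fell. Just inside the threshold were AC006547.1 with 305 reads, and TRAF3IP2-AS1 and MHENCR with 303 each. Just outside were AC002454.1 with 299 reads (6 and 13 in the libraries labelled knockout, 158 and 122 in wild-type), and AL928654.2 and AL031714.1 with 298 each.

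**Figure D1:**
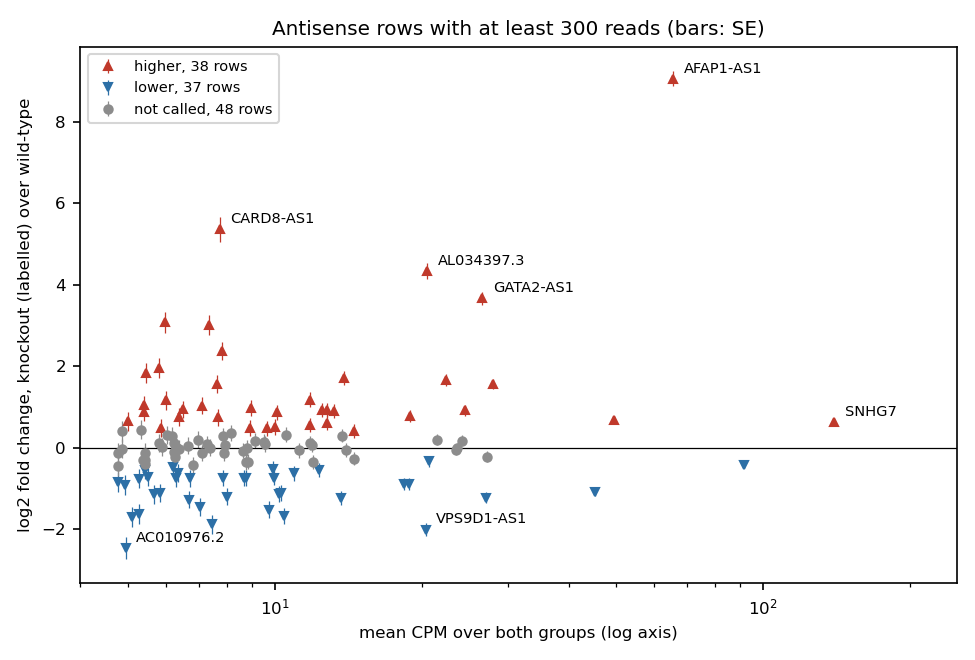
Log2 fold change of the 123 antisense rows, libraries labelled knockout over wild-type, against the mean CPM over both groups on a log axis; triangles passed the test at an adjusted p under 0.05, circles did not, and bars are standard errors. The 38 rises and 37 falls lie on both sides of 0 at every level, and AFAP1-AS1 stands apart at 9.04.

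The largest rises were in rows with under 150 reads in wild-type, which the sum of 300 took in through the libraries labelled knockout. The first was AFAP1-AS1 (ENSG00000272620, chromosome 4: 7754090 to 7778928, plus strand), a long noncoding RNA known for high expression in several carcinomas. It had 1934 and 1928 reads in the libraries labelled knockout, against 2 and 6 in the wild-type libraries. The RNA was close to absent in wild-type, and with 3870 reads in all it ranked behind only SNHG7 and FGD5-AS1 among the antisense rows. Its level was 130.7 ± 1.38 CPM in the libraries labelled knockout and 0.245 ± 0.185 CPM in wild-type (SD, n = 2 each), a log2 fold change of 9.04 (SE 0.185, edgeR adjusted p 5.58e-56). The ratio of the summed reads was 545.6, with a 95% exact conditional interval of 276.6 to 1265 that covers counting error only. Its partner AFAP1, which encodes an actin filament-associated protein, fell, with 330 and 307 reads in the libraries labelled knockout against 720 and 609 in wild-type (log2 fold change -0.88, SE 0.122, edgeR adjusted p 1.38e-09). The rows are tail to tail and share 20215 bases, 81.4% of the antisense row.

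CARD8-AS1 (ENSG00000268001, chromosome 19: 48255675 to 48258199) had 248 and 197 reads in the libraries labelled knockout, against 4 and 8 in wild-type (log2 fold change 5.36, SE 0.313, edgeR adjusted p 2.60e-26). The ratio of summed reads was 41.9 (95% interval 23.8 to 81.7, counting error only). Its head-to-head partner CARD8, which encodes an inflammasome sensor, also rose, with 882 and 765 reads in the libraries labelled knockout and 337 and 396 in wild-type (log2 fold change 1.34, SE 0.114). AL034397.3 on chromosome X (66015461 to 66020422), which overlaps no protein-coding row, had 533 and 622 reads in the libraries labelled knockout and 21 and 43 in wild-type (log2 fold change 4.34, SE 0.198, edgeR adjusted p 1.11e-32). In AFAP1-AS1, CARD8-AS1 and AL034397.3 the libraries of the groups did not overlap, as in 82% of all rows tested. The largest rises were named from such rows only. The protein-coding row with at least 300 reads that lies nearest to AL034397.3, the cytoskeletal linker gene MSN at 273530 bases, fell (log2 fold change -0.43).

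GATA2-AS1 (ENSG00000244300, chromosome 3: 128489212 to 128502348, plus strand) starts inside GATA2, the gene of a transcription factor of blood stem and progenitor cells, and runs away from it. It had 779 and 679 reads in the libraries labelled knockout, against 71 and 59 in wild-type. Its level was 49.4 ± 5.20 CPM in the libraries labelled knockout and 3.89 ± 0.262 CPM in wild-type (SD, n = 2 each), a log2 fold change of 3.66 (SE 0.157, edgeR adjusted p 2.74e-34). GATA2 rose beside it, with 3506 and 3813 reads in the libraries labelled knockout and 497 and 408 in wild-type (log2 fold change 3.19, SE 0.0847). The antisense share of the pair's reads was 18.2% and 15.1% in the libraries labelled knockout and 12.5% and 12.6% in wild-type, and the change of balance of 0.47 on the log2 scale (SE 0.240, edgeR adjusted p 0.18) did not pass the test. Of the 12 myeloid markers given above, 11 rose as well and CTSG fell.

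Further rises of more than 4-fold were found in 3 rows. LINC01088 had 152 and 164 reads in the libraries labelled knockout against 24 and 18 in wild-type (log2 fold change 3.08, SE 0.260). TMCC1-AS1, which lies 205 bases from the endoplasmic reticulum protein gene TMCC1 without overlapping it, had 166 and 220 reads in the libraries labelled knockout against 36 and 18 in wild-type (log2 fold change 3.01, SE 0.247), and TMCC1 rose by 0.78. AC020916.1 had 179 and 207 reads in the libraries labelled knockout and 42 and 42 in wild-type (log2 fold change 2.37, SE 0.221). The groups did not overlap in any of these 3 rows, which were named from rows without overlap. Near the proteoglycan gene BCAN (brevican), AL365181.3 and AL590666.2 share that partner and rose by 1.66 and 1.83, and BCAN rose by 1.28, with 90 and 89 reads in the libraries labelled knockout and 37 and 46 in wild-type. These rows are neighbours and not independent.

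**Figure D2:**
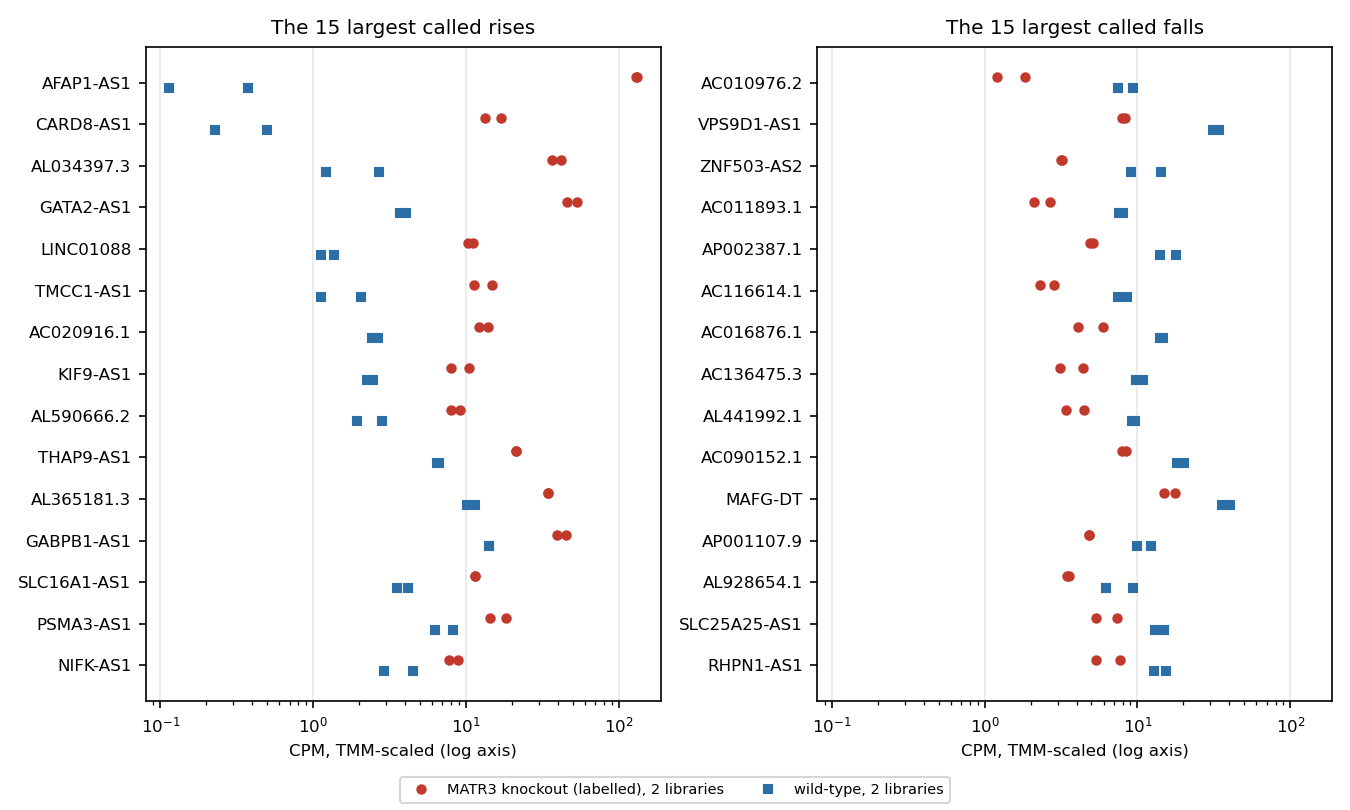
Level of the 15 antisense rows with the largest called rises (left) and falls (right) among rows whose groups do not overlap, as TMM-scaled CPM on a log axis; each point is 1 library, circles for the 2 labelled knockout and squares for the 2 wild-type. The wild-type levels of AFAP1-AS1 and CARD8-AS1 lie below 1 CPM.

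The largest fall among the 123 rows was that of AC010976.2 (chromosome 2: 127625997 to 127626848), a row of 852 bases that lies wholly inside the unconventional myosin gene MYO7B on the other strand. It had 27 and 18 reads in the libraries labelled knockout, against 162 and 119 in wild-type (log2 fold change -2.45, SE 0.270, edgeR adjusted p 5.73e-13). With under 150 reads in the libraries labelled knockout, AC010976.2 reached the sum of 300 mainly through wild-type. Its ratio of summed reads was 0.181 (95% interval 0.129 to 0.249, counting error only). MYO7B fell too, with 5930 and 5947 reads in the libraries labelled knockout against 13355 and 11324 in wild-type (log2 fold change -0.88). The antisense row thus held at most 1.20% of the pair's reads in any library.

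VPS9D1-AS1 (ENSG00000261373, chromosome 16: 89711856 to 89718165) lies inside VPS9D1. It had 122 and 118 reads in the libraries labelled knockout, against 592 and 499 in wild-type, and its level was 8.13 ± 0.260 CPM in the libraries labelled knockout and 32.6 ± 1.87 CPM in wild-type (SD, n = 2 each; log2 fold change -2.0, SE 0.152, edgeR adjusted p 4.64e-20). VPS9D1 itself had 215 and 250 reads in the libraries labelled knockout and 290 and 265 in wild-type, and did not pass the test (log2 fold change -0.08, SE 0.155). The antisense row took 36.2% and 32.1% of the pair's reads in the libraries labelled knockout and 67.1% and 65.3% in wild-type. ZNF503-AS2 showed the same arrangement of calls. Like AC010976.2, this row had under 150 reads in the libraries labelled knockout and reached the sum of 300 mainly through wild-type. It had 47 and 47 reads in the libraries labelled knockout against 249 and 145 in wild-type (log2 fold change -1.88, SE 0.225), while ZNF503, a zinc finger gene, had a log2 fold change of -0.28 (SE 0.159, edgeR adjusted p 0.116).

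Among the 21 antisense rows with at least 1000 reads, 9 rose and 7 fell (all rows tested: 33.7% and 32.3%). Those shares are not matched in reads. Of all rows with at least 300 reads, 73.3% were called in either direction. SNHG7, a snoRNA host and the row with the most reads (8713), had 2456 and 2591 reads in the libraries labelled knockout, against 1952 and 1714 in wild-type (log2 fold change 0.64, SE 0.0737, edgeR adjusted p 3.85e-12). ZFAS1, another snoRNA host, had 828 and 982 reads in the libraries labelled knockout against 649 and 616 in wild-type (log2 fold change 0.69, SE 0.0969). The host SNHG12 did not pass the test (log2 fold change -0.21, SE 0.126). Over the list of snoRNA hosts of any biotype, 9 of 18 tested rose and 5 fell (all rows tested: 33.7% and 32.3%). Of the 4 list members among the antisense rows, 3 rose. SNHG10, a host that the list does not hold, fell, with 83 and 90 reads in the libraries labelled knockout against 182 and 146 in wild-type (log2 fold change -0.74, SE 0.201). The hosts outside the antisense rows went both ways, GAS5 by 1.14 and SNHG1 by 1.34 upward and DANCR by -1.37.

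FGD5-AS1 had 1188 and 1131 reads in the libraries labelled knockout and 1757 and 1738 in wild-type (log2 fold change -0.42, SE 0.0790). HHIP-AS1 had 448 and 415 reads in the libraries labelled knockout and 1110 and 947 in wild-type (log2 fold change -1.07, SE 0.101). GABPB1-AS1, beside the gene of a subunit of the GABP transcription factor, had 574 and 665 reads in the libraries labelled knockout and 248 and 225 in wild-type (log2 fold change 1.57, SE 0.130). Each of these 3 passed the test with no overlap between groups (no overlap in 82% of all rows tested). In a list of widely studied antisense and other RNAs, 7 of 17 tested rose and 5 fell (all rows tested: 33.7% and 32.3%). The protein-coding row WRAP53 is among these falls. Of the 7 list members among the antisense rows, 5 rose and 2 fell. One of the rises, that of NUTM2A-AS1 (0.42), did not pass without wild-type replicate 2 (0.19, edgeR adjusted p 0.30), without either knockout replicate, by DESeq2 or with no expression filter. THAP9-AS1 (1.70) and PSMA3-AS1 (1.18) were among those that rose. In a list from immune and blood loci, 5 of 11 tested rose and 3 fell, beside the same shares over all rows. Of its 3 members here 2 rose, GATA2-AS1 and HCG18, a noncoding RNA of the HLA region.

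By position, 103 of the 123 rows overlapped a protein-coding row, with 102 distinct partners. A total of 99 partners lay on the opposite strand. In 4 cases the longest overlap was with a row on the same strand. Among these, HHIP-AS1 lies inside AC098588.1, which had 0 reads, THAP9-AS1 inside SEC31A and PSMA3-AS1 inside ARMH4. Of the overlapping rows, 38 were head to head with the partner, 32 tail to tail, 17 inside it, and 12 held the partner inside them. The strand setting of the counting is not given in the sources used here, so the reads of rows that overlap on opposite strands cannot be told apart. Every statement on a pair carries that limit. Of the 102 partners, 91 were tested, of which 34 rose and 30 fell. That is 70.3% called, against 70% of all protein-coding rows tested. The antisense rows averaged less per length than their partners. The median level was 3.06 CPM per kb in the libraries labelled knockout and 2.69 in wild-type for antisense rows, and 4.43 in the libraries labelled knockout and 4.80 in wild-type for partners. Per length, 60 of 98 antisense rows lay below their partner in the libraries labelled knockout and 61 in wild-type. SNHG7 was highest in the libraries labelled knockout, at 39.3 CPM per kb, and HHIP-AS1 in wild-type, at 39.5.

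Most rows that were head to head with their partner changed in the same direction as the partner. In 37 such pairs both rows were tested, and 30 had the same sign. In 21 both were called, and 20 of these had the same direction, 12 higher and 8 lower. The exception was AC091729.3, which fell by 0.51 while ZFAND2A rose by 0.43. Spearman's correlation of the 2 log2 fold changes across these 37 pairs was 0.80 and Pearson's was 0.71, given as a description, since the rows of a pair share libraries and, with the strand setting unknown, possibly reads.

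Apart from GATA2-AS1 and CARD8-AS1, pairs that rose included TMEM161B-AS1 (1.04) with TMEM161B (1.14), HCG18 (0.92) with the ubiquitin ligase gene TRIM39 (0.91), and ZEB1-AS1 (0.94) with ZEB1 (1.05), a transcriptional repressor. Of pairs that fell, AC016876.1 had 60 and 89 reads in the libraries labelled knockout against 258 and 223 in wild-type (log2 fold change -1.51), beside MPDU1, a gene of glycan assembly (-1.46). AC090152.1 had 124 and 118 reads in the libraries labelled knockout and 315 and 322 in wild-type (-1.22), beside TOX, a transcription factor gene of T cell development (-1.09). RNASEH1-AS1 (-0.62) and RNASEH1 (-0.71), the gene of ribonuclease H1, fell by like amounts. In these 6 pairs the antisense row and the partner differed by at most 0.13 on the log2 scale, and none passed the test of balance. Other head-to-head pairs did. Among the 37 tested, the balance changed toward the antisense row in 7 and toward the partner in 3. Over all pairs tested in the table, 14.3% changed toward the antisense row and 9.78% toward the partner. NKILA, known as an inhibitor of NF-kappaB signalling, fell by 0.92 and its partner PMEPA1, a gene induced by TGF-beta, fell by 2.04 (balance 1.12, SE 0.255, edgeR adjusted p 0.00858). LOXL1-AS1 fell by 0.89 and the lysyl oxidase-like gene LOXL1 by 1.66, but that balance did not pass (0.77, SE 0.275, edgeR adjusted p 0.0601).

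The other arrangements gave lower values. Tail to tail, 13 of 28 pairs had the same sign, and of 11 with both rows called 6 had the same direction and 5 the opposite (Spearman 0.21, Pearson -0.07). For rows inside their partner, 11 of 17 had the same sign, and of 10 with both called 8 had the same direction, 6 of them lower (Spearman 0.52, Pearson 0.55). Examples are AP002387.1, which fell by 1.67 inside DHCR7 (a fall by 1.06), the gene of the last step of cholesterol synthesis, and AC011893.1, which fell by 1.70 inside the lactase gene LCT (a fall by 2.63). In the 8 pairs with the partner inside the antisense row, Spearman's correlation was -0.45, and in the 2 with both called the directions were opposite. Over all 92 pairs, 58 had the same sign, and 35 of the 45 with both called went the same way (Spearman 0.48, Pearson 0.29). With the nearest protein-coding row that they do not overlap and that had at least 300 reads, at a median of 19560.5 bases, the same 92 antisense rows gave 51 of the same sign and a Spearman correlation of 0.21. No difference between these correlations was tested.

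**Figure D3:**
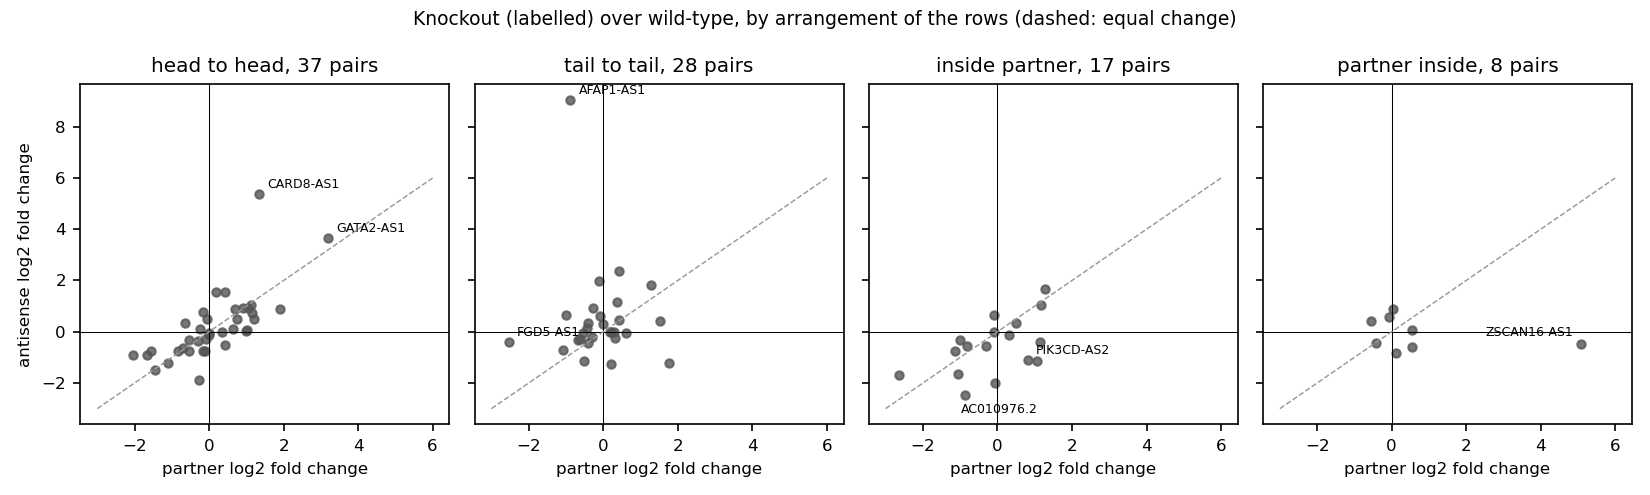
Log2 fold change of each antisense row (vertical axis) against that of its protein-coding partner (horizontal axis), libraries labelled knockout over wild-type, in 4 panels by the arrangement of the rows; the dashed line marks equal change. Of the 37 head-to-head pairs 30 have the same sign, and of the 28 tail-to-tail pairs 13; CARD8-AS1 lies far above the line.

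Among head-to-head pairs the shared length was short, with a median of 551 bases. Spearman's correlation was 0.66 in the 18 pairs with a shorter overlap and 0.88 in the 19 with that overlap or more. Where the starts lay within 1000 bases of each other it was 0.68 (25 pairs), and where they lay farther apart it was 0.92 (12 pairs). Without GATA2-AS1 and CARD8-AS1 it was 0.76 (35 pairs). In the antisense rows under 300 reads, which the choice of rows left out, 82 of 151 head-to-head pairs had the same sign and 32 of the 43 with both called the same direction (Spearman 0.34). There, rows inside their partner gave 36 of 43 (Spearman 0.42, 161 pairs) and tail-to-tail rows 17 of 29 (Spearman 0.27, 94 pairs). The 13 pairs with the partner inside gave 11 of the same sign and 3 of 4 of the same direction (Spearman 0.64). The order of the arrangements was thus not the same under 300 reads.

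The rows that overlap no protein-coding row numbered 20, of which 3 rose and 6 fell (45.0% called, against 66% of all rows tested). In 12 of them the nearest protein-coding row with at least 300 reads lay within 1000 bases. MAFG-DT, 115 bases from MAFG, the gene of a small MAF transcription factor, had 257 and 223 reads in the libraries labelled knockout, against 700 and 567 in wild-type (log2 fold change -1.22, SE 0.131). MAFG rose by 0.73, opposite to it. AC116614.1 fell by 1.63 beside SNTG2, a syntrophin gene that fell by 1.81, and TMCC1-AS1 rose with TMCC1 as given above.

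A direct test asked whether an antisense row and its partner changed by different amounts. The balance, which is the antisense log2 fold change minus that of the partner, changed in 28 of 92 pairs (30.4%), 16 toward the antisense row and 12 toward the partner. Over all 552 pairs tested in the table, 24.1% changed, 14.3% toward the antisense row and 9.78% toward the partner. The median balance was 0.01, against 0.10 over all pairs. The count was 9 without knockout replicate 1 and 20 without knockout replicate 2; in both of these fits the pairs of AFAP1-AS1, CARD8-AS1 and ZSCAN16-AS1 failed the minimum of 10 reads in 2 libraries and were not tested.

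The 3 largest changes toward the antisense row were those of AFAP1-AS1, CARD8-AS1 and FGD5-AS1. AFAP1-AS1 took 85.4% and 86.3% of its pair's reads in the libraries labelled knockout and 0.277% and 0.976% in wild-type (balance 9.93, SE 0.334, edgeR adjusted p 8.54e-10). CARD8-AS1 took 21.9% and 20.5% in the libraries labelled knockout and 1.17% and 1.98% in wild-type (balance 4.01, SE 0.377, edgeR adjusted p 2.52e-05). In the pair of FGD5-AS1 both rows fell, but the partner FGD5, a guanine nucleotide exchange factor gene, fell further, with 40 and 39 reads in the libraries labelled knockout against 259 and 258 in wild-type (log2 fold change -2.53, balance 2.11, SE 0.229, edgeR adjusted p 8.33e-05). In the pair of SNHG7 the rows moved in opposite directions. Its partner FAM69B had 518 and 499 reads in the libraries labelled knockout and 1178 and 1108 in wild-type (log2 fold change -0.99), which gave a balance of 1.63 (SE 0.207, edgeR adjusted p 0.000254). KIF9-AS1 rose by 1.96 while the kinesin gene KIF9 did not pass the test at -0.12 (balance 2.07). SLC16A1-AS1 had 167 and 169 reads in the libraries labelled knockout and 62 and 66 in wild-type (log2 fold change 1.57). Beside it, the lactate transporter gene SLC16A1 rose by 0.20 (SE 0.0795). The call on SLC16A1 was lost without either knockout replicate or wild-type replicate 1. It was also lost by DESeq2 (Wald test adjusted p 0.0636) and with no expression filter (edgeR adjusted p 0.0849).

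Toward the partner, the largest change was in the pair of ZSCAN16-AS1 and ZSCAN16, a zinc finger gene inside it (balance -5.58, SE 0.809, edgeR adjusted p 0.000421). ZSCAN16 had 36 and 32 reads in the libraries labelled knockout and 2 and 0 in wild-type, a ratio of summed reads of 38.4 (95% interval 10.2 to 323.7, counting error only). ZSCAN16-AS1 had 69 and 84 reads in the libraries labelled knockout and 132 and 109 in wild-type (log2 fold change -0.48, SE 0.217, edgeR adjusted p 0.0472), and this fall did not pass when any 1 of 3 libraries was left out, both knockout replicates and wild-type replicate 1, nor with the replicate block (edgeR adjusted p 0.0552), by DESeq2 (0.182), with upper-quartile scaling (0.0649) or with no expression filter (0.0855).

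Among the 10 pairs whose rows were called in opposite directions were those of AP001107.9 and PIK3CD-AS2. Both of these antisense rows had under 150 reads in the libraries labelled knockout. AP001107.9 had 71 and 72 reads in the libraries labelled knockout and 215 and 158 in wild-type (log2 fold change -1.20), while SLC29A2, a nucleoside transporter gene tail to tail with it, had 682 and 653 reads in the libraries labelled knockout and 252 and 195 in wild-type (1.76). That balance was -2.96 (SE 0.267, edgeR adjusted p 2.52e-05). PIK3CD-AS2 lies inside PIK3CD, the gene of the leukocyte phosphoinositide 3-kinase subunit p110 delta. It had 51 and 58 reads in the libraries labelled knockout against 132 and 133 in wild-type (log2 fold change -1.11), while PIK3CD had 3414 and 3246 reads in the libraries labelled knockout against 2337 and 1955 in wild-type (0.81), a balance of -1.92 (SE 0.258, edgeR adjusted p 0.000349). The antisense share fell in both pairs, to 9.43% and 9.93% in the libraries labelled knockout against 46.0% and 44.8% in wild-type at SLC29A2, and to 1.47% and 1.76% against 5.35% and 6.37% at PIK3CD. DLEU2, a noncoding RNA of a region often deleted in leukaemia, fell by 0.61 while TRIM13 inside it rose by 0.54. The call on DLEU2 was lost by DESeq2 (Wald test adjusted p 0.0883). It was also lost without knockout replicate 1 (log2 fold change -0.35) or wild-type replicate 2 (-0.54).

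**Figure D4:**
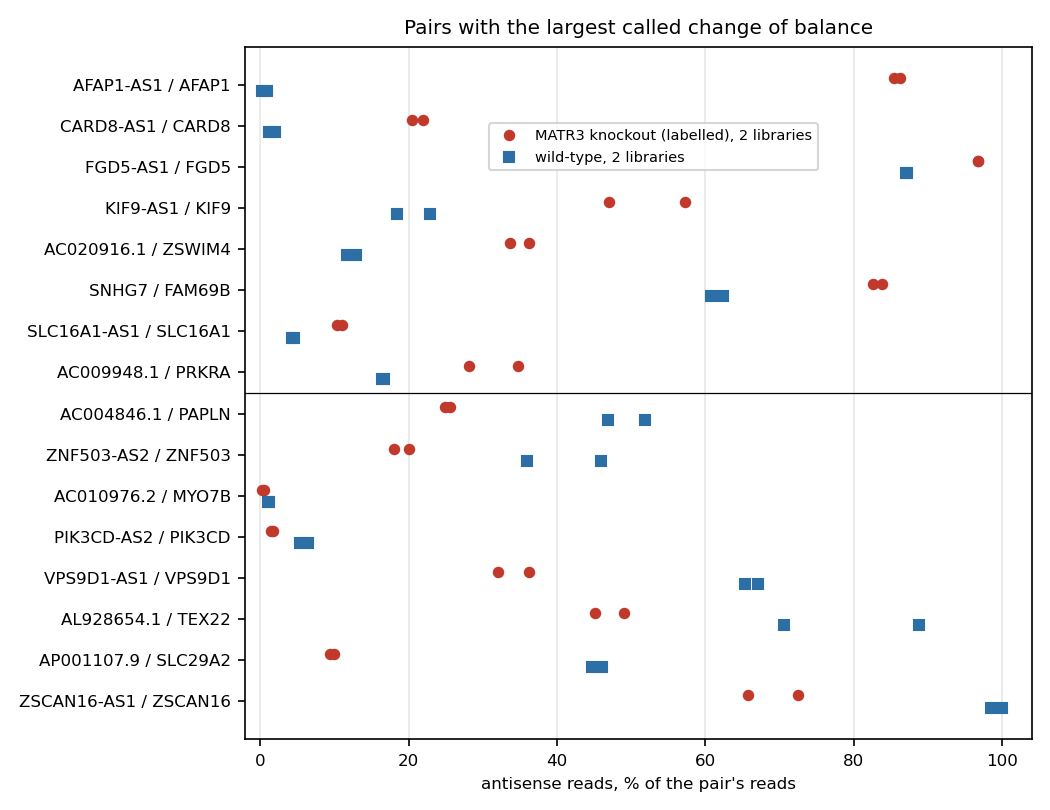
Reads of the antisense row as a percentage of the reads of the antisense row and its partner, for the 8 pairs with the largest called change of balance toward the antisense row (upper block) and the 8 toward the partner (lower block); each point is 1 library, circles for the 2 labelled knockout and squares for the 2 wild-type. The share of AFAP1-AS1 is 85.4% and 86.3% in the libraries labelled knockout and under 1% in wild-type, while that of AP001107.9 is 9.43% and 9.93% against 46.0% and 44.8%.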

How the data were processed

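The authors deposited 1 table of raw read counts per gene for 4 libraries, without normalization. Trizol RNA and Illumina library protocols are named, per the labels' protocols, and the submitters' processing notes name CASAVA 1.8, HISAT2 2.0.5 and featureCounts 1.5.0-p3. What each did, the genome build and the strand setting were not given in the sources used here. Although the samples are labelled as mouse, the row identifiers are those of human Ensembl genes, and the values were treated as human. Coordinates, lengths, strands and biotypes are those of the deposited table. No sequence is shown, since no human genome was used here.

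Antisense rows with at least 300 reads were taken. The partner was the protein-coding row with the longest overlap on either strand. The test was edgeR 4.0.16 (R 4.3.3, TMM scaling with factors 0.978 to 1.04, default filter, two-sided quasi-likelihood), with Benjamini-Hochberg adjustment over 15294 rows and a threshold of 0.05. The balance of a pair was tested in edgeR as the interaction of row kind and genotype with library as a block, over 552 pairs. Total counts of 15008554 to 17477643 per library leave rows near 300 reads imprecise. Replicates differed by more than sampling noise, with a chi-square per gene of 2.21 in the libraries labelled knockout and 5.83 in wild-type. Both tests were tested on simulated data. The members, lists and tests were chosen with earlier results of these data known. The text names the 12 rows with most reads, the 15 largest called rises and falls without overlap, up to 8 pairs in each direction of balance, list members, rows at the threshold, and partners. The head-to-head pairs of RNASEH1-AS1, NKILA, LOXL1-AS1 and AC091729.3, and the neighbours of rows without a partner, were chosen after their values were seen. Alternatives were other scalings, filters, thresholds and partner choices, DESeq2 1.42.0, limma 3.58.1, a replicate block and leaving out each library.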

Additional observations from a re-analysis of the deposited data

How the results depend on the processing

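The 75 calls among the antisense rows came to 64 to 75 with other scalings, filters, DESeq2 (64), the 0.01 threshold (64) or the replicate block (73), and to 64 to 73 with 1 library left out. With at least 150 reads in place of 300 the count was 131 of 242 rows (72 higher, 59 lower), with 1000 reads 16 of 21 (9 higher, 7 lower), and among rows without an overlapping protein-coding row 9 of 20. These counts differ because other rows enter. Of the 75 calls, 58 were kept in all fits of the 123 rows, and none turned its direction. Calls on partners ranged from 48 to 67 with 1 library left out, and 45 of 64 were kept in every fit. Changed balances numbered 28 and ranged from 9 to 27 with 1 library left out, with 9 of the 28 kept in all 4. At adjusted p under 0.01 there were 17, for overlaps of at least 50% of the antisense row 10 of 37 pairs, with limma on log2 ratios 38, with at least 5 reads in every column 38, and with the replicate block 27. Without knockout replicate 1 the calls, not the direction, were lost for the balances of AC010976.2 (-1.89), ZNF503-AS2 (-1.47), AL928654.1 (-2.08), AC009948.1 (0.99) and AC004846.1 (-1.55), with 1 library fewer, and that of AC010976.2 also without knockout replicate 2 (-1.31). The pairs of AFAP1-AS1, CARD8-AS1 and ZSCAN16-AS1 were not tested in either fit. Deviations of same-numbered libraries had a correlation of 0.03, which cannot show whether those libraries share a culture or batch. Partners called with the replicate block numbered 65. The tested MATR3 row kept its direction, 1.66 to 2.63 with 1 library left out. Depth limits rows with few reads, such as AFAP1-AS1 in wild-type.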

Other observations

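Some noncoding RNAs of the lists lie under 300 reads or carry another biotype. HAGLR, a noncoding RNA of the HOXD cluster, had 69 and 89 reads in the libraries labelled knockout, against 16 and 25 in wild-type (log2 fold change 2.11, SE 0.317, edgeR adjusted p 1.41e-08). HOTAIRM1, of the HOXA cluster and known from myeloid maturation, had 47 and 60 reads in the libraries labelled knockout and 34 and 27 in wild-type (log2 fold change 0.99, SE 0.316). HOXA-AS3 of the same cluster fell by 1.05, with 17 and 19 reads in the libraries labelled knockout and 50 and 35 in wild-type. Of the 4 rows of the HOX clusters that were tested, 2 rose and 1 fell. WT1-AS, at the Wilms tumour gene, had 70 and 96 reads in the libraries labelled knockout against 1 and 0 in wild-type. ITGB2-AS1, at the gene of a leukocyte integrin subunit, fell by 1.59, with 32 and 11 reads in the libraries labelled knockout and 69 and 78 in wild-type. At the X inactivation locus, FTX rose by 0.64 and JPX did not pass the test (0.37), while TSIX had 0 reads in all 4 libraries. All antisense rows under 300 reads that were tested numbered 576, of which 144 rose and 70 fell (37.2% called). Their log2 fold changes ran from -3.68 to 8.93. Over all rows tested 66% were called, 33.7% higher and 32.3% lower, but that share is not matched in reads. Among all rows with at least 300 reads 73.3% were called, so the share among all rows under 300 reads lies below 66%.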
